A study of Homo sapiens with 12 samples.

Results

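Glycolysis turns glucose into pyruvate and lactate, and its transcripts are among the most studied of cancer cells. Described here are 8 loci of this pathway in H460 cells: SLC2A1, HK2, PFKP, ALDOA, GAPDH, ENO1, PKM and LDHA. They were picked by name, and the intervals described are those that overlap each locus span by at least 1 bp on the strand of the gene. Of 53502 intervals in the series, 29 met this rule, and joined over lists they formed 14 of 20742 regions. Intervals were found on 5 of the loci, SLC2A1, HK2, PFKP, ENO1 and PKM, each in at least 1 list. GAPDH, LDHA and ALDOA had none in any list, and 0 intervals lay on the opposite strand of the 8 spans. The share of all genes with an interval was not computed, for want of hg19 gene positions, so whether 5 of 8 is high or low cannot be read from these data.

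The study applied MeRIP-seq, in which RNA fragments carrying N6-methyladenosine (m6A) are captured by an antibody and read out alongside the unselected input RNA. H460 is an established line of human large cell lung cancer, labelled wild-type. The labels give 12 libraries in 4 groups of 3: input and immunoprecipitated libraries of untreated cells, and the same of cells kept in 100 nM rapamycin for 24 h. Rapamycin, an inhibitor of the kinase complex mTORC1, served to switch on autophagy. RNA of all groups was depleted of ribosomal RNA, and the labels do not say whether replicates were separate cultures.

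The values come from 6 deposited peak lists, lettered A to F by the accession order of the samples they are filed under. The record places all 6 with untreated cells, and files A, C and E under input libraries and B, D and F under immunoprecipitated ones. A list of m6A peaks needs both kinds of library, so which libraries stand behind each list is not known. By name, moreover, A, B and C are marked con, whereas D, E and F are marked rapamycin. Because these sources conflict, no list was put into a treatment arm, rapamycin was not compared with no treatment, and no test was made. Scores, percentiles and covered lengths are given list by list. Interval totals and median percentiles per locus or over all members pool the lists, so a region held by several lists enters once for each. List length ran from 4530 to 14908 intervals, with A, B and C the longer lists. Sequencing depth and RNA level are unknown, so a locus without an interval has no kept peak, which does not show that its transcript lacks the mark.

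In the pathway, SLC2A1 encodes GLUT1, the glucose transporter of the plasma membrane, and HK2 a hexokinase that traps glucose in the cell by phosphorylation. PFKP is the platelet-type subunit of phosphofructokinase, which carries out the committed step. ALDOA (aldolase), GAPDH and ENO1 (enolase) act in turn after it, PKM encodes the pyruvate kinase that forms pyruvate, and LDHA reduces pyruvate to lactate. The m6A mark is laid on adenosines of nascent mRNA, commonly near stop codons and in long exons, and affects mRNA decay and translation. Antibodies to m6A also bind a related methylated adenosine next to the mRNA cap.

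Intervals reached the first base of the locus span in all 5 loci that had any, so start sequences from RefSeq are shown for SLC2A1, PKM and ENO1, the genes among these with 1 start in its table. Each line has 30 bases before the start in lower case and the first 30 transcribed bases in capitals, from GRCh38.p14, matched by symbol and not by position.
SLC2A1: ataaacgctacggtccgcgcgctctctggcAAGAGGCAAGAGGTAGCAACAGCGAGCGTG
PKM: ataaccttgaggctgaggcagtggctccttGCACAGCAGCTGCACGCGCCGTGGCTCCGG
ENO1: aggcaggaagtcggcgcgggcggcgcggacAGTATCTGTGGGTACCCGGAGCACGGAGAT
The letters GGAC, a frequent m6A context, were searched on the transcribed strand in the first 50 transcribed bases. They were in none of the 3 genes shown and in 1 of the 15 RefSeq start windows of the 8 members (a PFKP start), against 18.9% of 35116 RefSeq windows. On either strand of the full windows, which add the 250 bases before the start, they were in 14 of 15, against 87.4% of all. Most of a full window lies before the start, so this count does not describe m6A contexts in the transcript. The intervals run on well past the first 50 transcribed bases, and the sequence under the rest of them was not used here.

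SLC2A1, the uptake gene, held the most intervals, 9, in lists A, B, C and F and none in D and E. Its span runs along chromosome 1, minus strand, between 43391046 and 43424847 (hg19). List A covered 2000 bp of it, B covered 1805 bp, C covered 1867 bp and F covered 2958 bp. These are 5.92%, 5.34%, 5.52% and 8.75% of its 33802 bp. Coverage thus lay close together in A, B and C and was highest in F, one of the short lists.

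The region of SLC2A1 that recurred most lay at the 3′ end, from 43391046 to 43392912, in 4 lists. The authors gave each peak a score, on a scale that none of the sources used here explains. List A scored this region 1287.16, B scored it 3100, C 663.81 and F 106.06. Ranked within their own lists, these were the 88.0th, 93.9th, 64.7th and 26.8th percentiles. A, B and C placed the region in their upper part and F in its lower part. The upstream edge was the same base in all 4 lists, whereas the other edge stopped 506 bp short of the span's end in A and 605 bp short in B, and reached it in C and F.

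At the 5′ end of SLC2A1, an interval of 543 bp from 43424305 to 43424847 was held by A, B and F with both edges equal. A scored it 670.8, B 574.75 and F 91.27, at percentiles 76.3, 59.7 and 17.7. Again F ranked it lowest. The other regions occurred in 1 list each. One of 96 bp lay from 43408897 to 43408992 in A (percentile 15.1), and one of 548 bp from 43395990 to 43396537 in F (percentile 53.1).

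HK2 held 3 intervals in B and 3 in C, and none in A, D, E or F. The span runs along chromosome 2, plus strand, between 75061108 and 75120481, and 2469 bp (4.16%) were covered in B and 3073 bp (5.18%) in C. The same 3 regions appeared in both lists. The first crossed the 5′ end, starting 1326 bp before the span in B and 1313 bp before it in C and ending at 75061770 in both. Its score was 810.47 in B and 739.95 in C, at percentiles 67.3 and 66.8, the highest of the HK2 intervals in each list. RefSeq lists 2 HK2 starts, 1043 bp apart in GRCh38.p14, so the 5′ end of this gene is not a single base. Where these starts lie in hg19 was not determined, so they were not set against the edges of the interval.

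Towards the 3′ end of HK2, a region of 234 bp from 75116372 to 75116605 had equal edges in B and C, with scores of 215.51 and 104.29. The last region began at 75117924 in both lists and was 1572 bp wide in B and 2176 bp in C, ending 986 bp and 382 bp before the end of the span. Scores there were 276.71 and 200.85, at percentiles 42.7 and 34.7. Both lists thus ranked the 5′ region of HK2 above the other regions.

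PFKP held 8 intervals in 5 of the lists, the most lists of any member, and none in A. Its span runs along chromosome 10, plus strand, between 3109712 and 3178997. B covered 1318 bp, C covered 1165 bp, D 107 bp, E 153 bp and F 977 bp, or 1.90%, 1.68%, 0.154%, 0.221% and 1.41% of 69286 bp. B held 3 intervals, C held 2, and D, E and F held 1 each. PFKP was the only member with an interval in D or in E.

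The interval in D and E lay from 3167289, at 83.2% of the way along the span, and was shared with B. It was 153 bp wide in B and E and 107 bp in D, with the same upstream edge. B scored it 2621.61, D 158.81 and E 344.43, at percentiles 86.3, 42.3 and 71.1. This narrow region was the highest-ranked one of PFKP in B. A wider one of 977 bp, from 3171199 to 3172175, had equal edges in B, C and F, and scores of 242.15, 575.38 and 91.64 (percentiles 39.1, 61.9 and 18.0). The third, of 188 bp, started at the first base of the span and was held by B and C at percentiles 15.0 and 27.5. None of the PFKP intervals came closer than 6822 bp to the 3′ end, unlike those of SLC2A1, HK2 and ENO1.

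**Figure D1:**
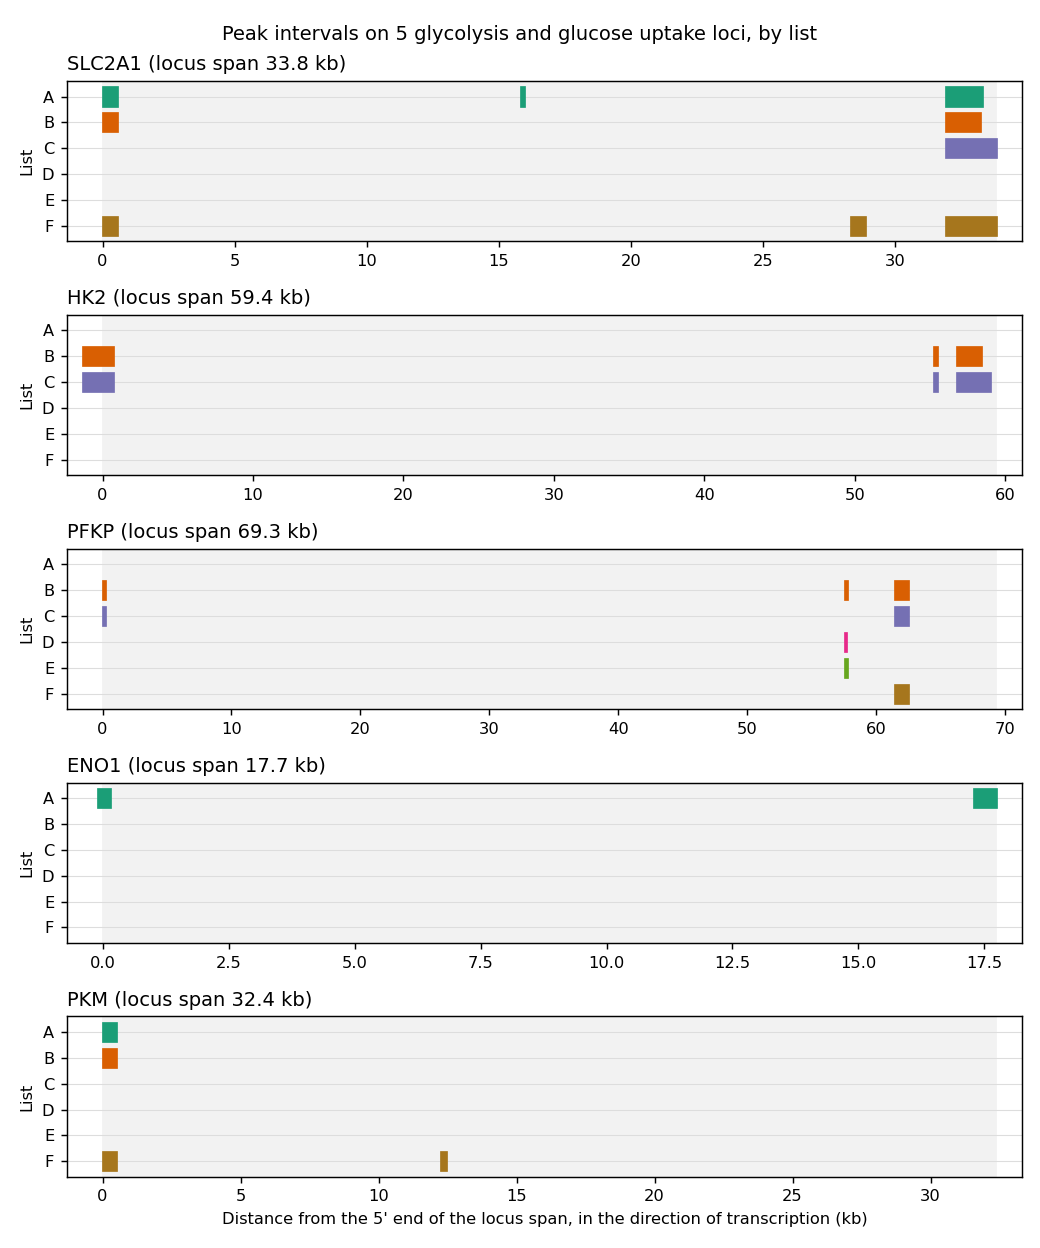
Intervals on the 5 loci that held any, with distance from the 5′ end of the locus span on the x axis (kb, in the direction of transcription) and the 6 lists in rows; grey marks the span, and a thin outline in the same colour keeps narrow intervals visible. SLC2A1 intervals sit in A, B, C and F, those of HK2 in B and C, those of PFKP in every list but A, those of ENO1 in A and those of PKM in A, B and F.

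The enzymes of the later steps had fewer intervals, 0 to 4 per locus, against 6 to 9 on SLC2A1, HK2 and PFKP. Their spans were also shorter, 3953 to 32358 bp against 33802 to 69286 bp, and the counts are not scaled to span length. By share of the span covered, ENO1 in A (3.23%) and PKM in F (2.04%) exceeded PFKP, which reached at most 1.90% (B). HK2 (4.16% and 5.18%) and SLC2A1 (5.34% to 8.75%) were higher in the lists that held them. ALDOA (plus strand of chromosome 16, 30064411 to 30081741) and GAPDH (plus strand of chromosome 12, 6643585 to 6647537) had none. The nearest interval on the strand of the gene was 14513 bp (B) to 65627 bp (D) from ALDOA, and 142848 bp to 228004 bp (A) from GAPDH. On either strand, no interval followed the GAPDH span for 18491 bp (A, B, C and F) to 63588 bp (D). With 3953 bp, GAPDH has the shortest span of the 8.

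ENO1 (minus strand of chromosome 1, 8921059 to 8938780) held 2 intervals, both in A. One of 232 bp, from 8938639 to 8938870, crossed the 5′ end by 90 bp, with a score of 211.63 (percentile 45.5). The other, of 430 bp from 8921059 to 8921488, ended on the last base of the span, with a score of 142.11 (percentile 30.4). Both ends of ENO1 thus held intervals in A, covering 572 bp (3.23%), and neither did in the other lists. In B and C the nearest interval on its strand was 43360 bp away.

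PKM (minus strand of chromosome 15, 72491370 to 72523727) held 4 intervals in A, B and F. An interval of 491 bp at the 5′ end, from 72523237 to 72523727, had both edges equal in the 3 lists. A scored it 227.27, B 203.19 and F 144.05, at percentiles 47.9, 34.3 and 43.2, so all 3 lists ranked it below their middle. F held a second interval of 168 bp from 72511284 to 72511451, with a score of 131.86 (percentile 38.6). The 3′ end of PKM had none, the nearest interval lying 19914 bp from it. LDHA (plus strand of chromosome 11, 18415936 to 18429765) had no interval, and the nearest on its strand was 27435 bp (B) to 1062999 bp (D) away.

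Over the members, 11 of the 29 intervals reached the first base of a span and 3 reached the last base. By region, 5 lay at a 5′ end, 1 on each of the loci with intervals, 2 reached a 3′ end (SLC2A1 and ENO1) and 7 did neither. For ENO1 this rests on list A alone. When intervals crossing the edge of a span were left out, the 5′ end was reached in 3 loci (SLC2A1, PFKP and PKM) in place of 5. With a minimum score at the median over all lists it was reached in 2 (SLC2A1 and HK2), and PKM and ENO1 kept no interval. Exons, codons and untranslated parts were not analysed, for want of hg19 gene models, and neither was the share of all genes with an interval at the 5′ end.

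**Figure D2:**
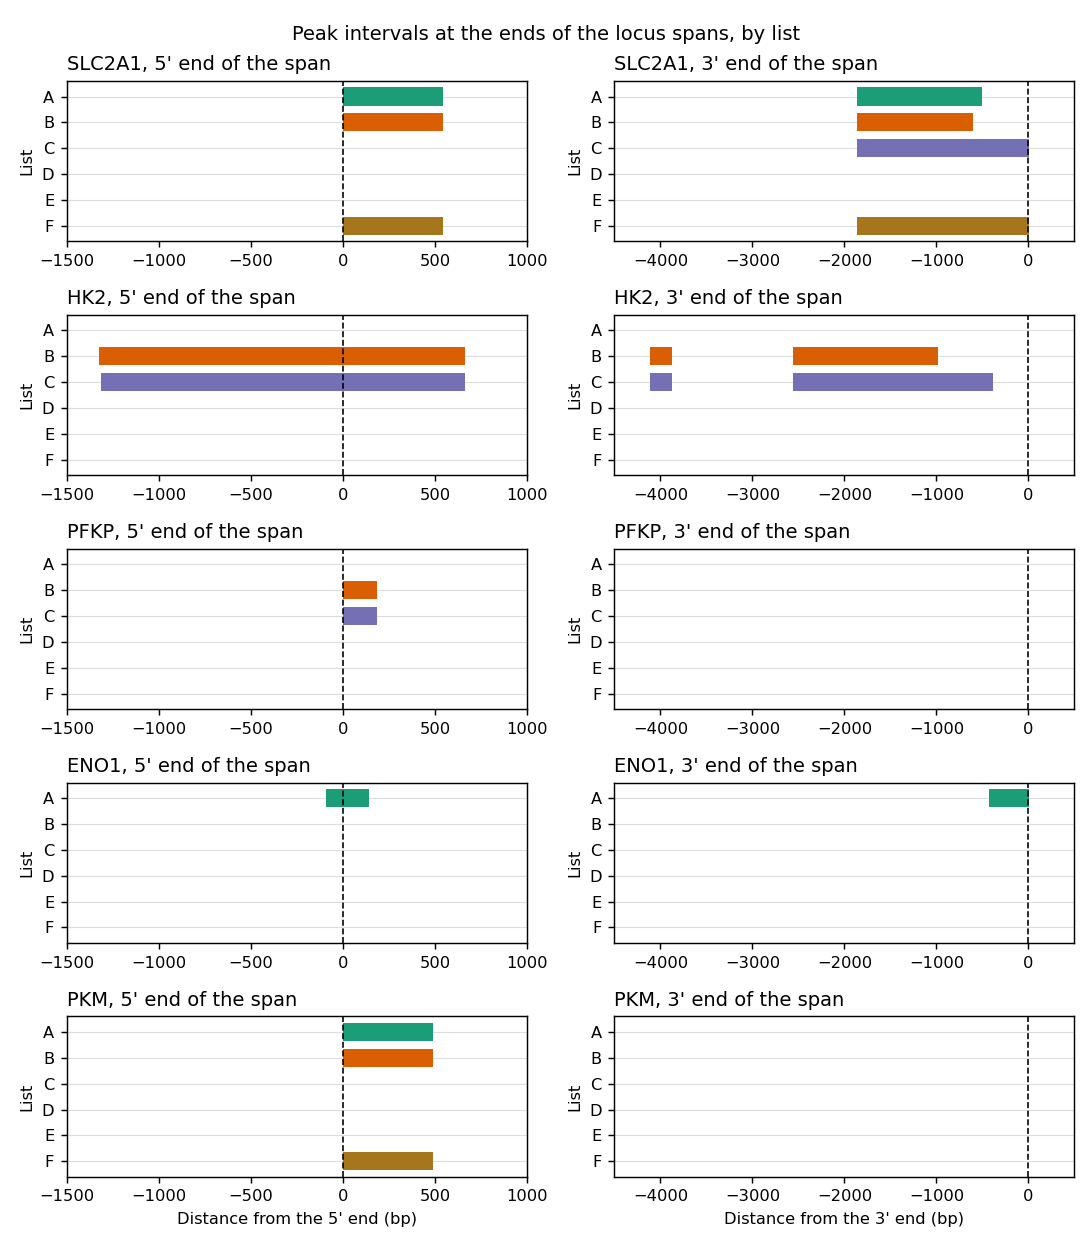
Intervals within about 1 kb of the 5′ end (left) and a few kb of the 3′ end (right) of each span, in bp from that end (dashed line), with the 6 lists in rows. SLC2A1, PFKP and PKM intervals start on the first base, those of HK2 and ENO1 cross it, and SLC2A1 (C and F) and ENO1 (A) intervals end on the last base.

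No member had an interval in all 6 lists. PFKP came nearest with 5 lists, and was in every list once A was left out. PKM and SLC2A1 were the most alike in their lists among the loci with intervals, both present in A, B and F and both absent from D and E. HK2 and ENO1 shared no list. Least alike were ENO1, found only in A, and PFKP, found in every list but A.

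Recurrence of the member regions was set beside that of all regions. None of the 14 was held by all 6 lists, against 8.30% of all regions. Of the 14, 5 (35.7%) were held by 3 or more lists, against 43.2% of all. These were both end regions of SLC2A1, the 5′ region of PKM and the 2 downstream regions of PFKP. Another 5, or 35.7%, occurred in 1 list, against 36.9% of all. With 14 regions, shares this near to the background are no result about the loci. Of the 9 regions shared between lists, 5 had both edges equal in every list that held them, and each of the 9 had at least 1 edge equal. How often edges are equal over all shared regions was not computed, so these counts are no result about the loci either.

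**Figure D3:**
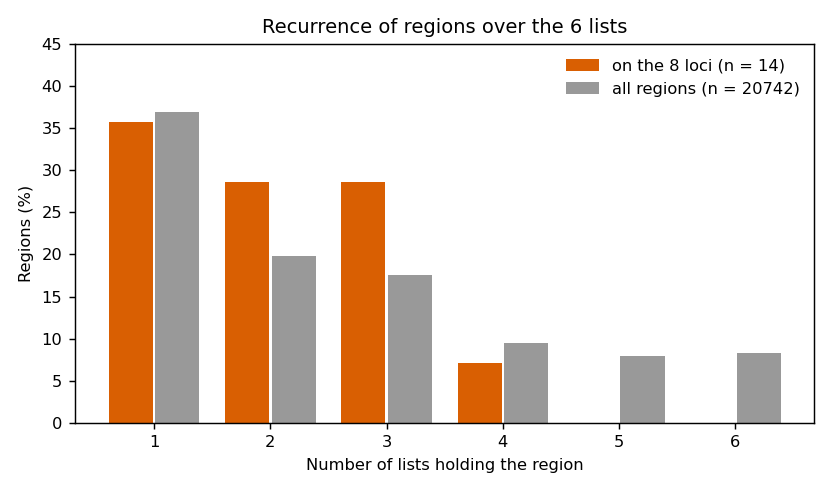
Percentage of regions (y axis) held by 1 to 6 lists (x axis), for the 14 regions on the 8 loci and for all 20742 regions. No region on the loci was in 5 or 6 lists, and 5 of 14 were in a single list.

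Scores of the members were not high within their lists. Of the 29 intervals, 11 ranked above the middle of their list and 18 below it, with a median percentile of 42.7, where a list as a whole stands at 50. The median was 59.7 for SLC2A1, 40.9 for PKM, 40.7 for PFKP, 39.3 for HK2 and 38.0 for ENO1. The ranges overlapped: SLC2A1 ran from 15.1 to 93.9, PFKP from 15.0 to 86.3 and HK2 from 14.1 to 67.3. Only the SLC2A1 interval of B stood at 3100, a value at which 1.10% (F) to 11.8% (B) of a list's scores piled up. The lowest score on a member was 91.27.

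**Figure D4:**
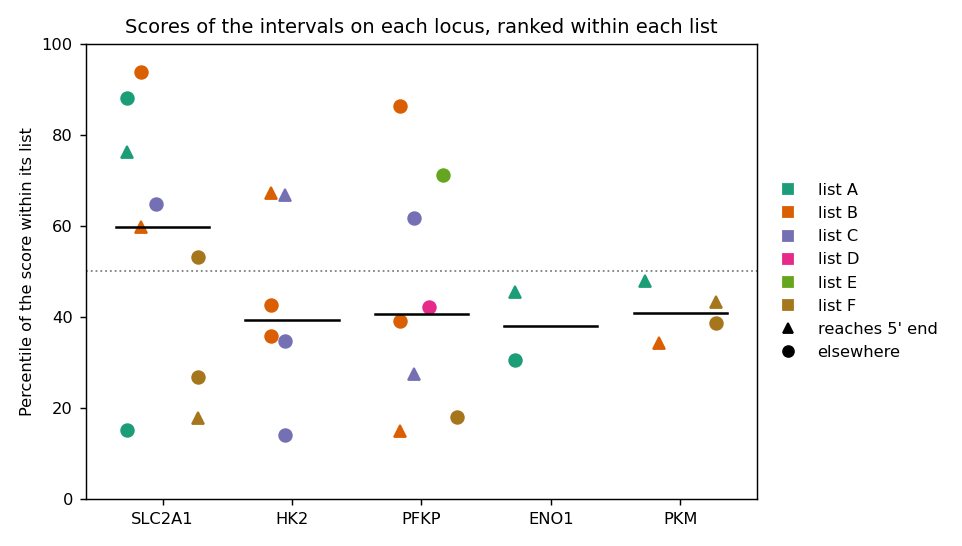
Percentile of each interval's score within its own list (y axis, 0 to 100) by locus, coloured by list; triangles reach the 5′ end, circles do not, and the black line is the median per locus. SLC2A1 has the highest median (59.7), and PKM and ENO1 intervals all lie below the dotted middle line at 50.

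The lists differed in how much of them fell on the members. A held 6 member intervals on 3 loci, B held 9 on 4, C held 6 on 3, D and E held 1 each, and F held 6 on 3. Per 10000 intervals of a list this was 4.98 in A (exact 95% binomial interval 1.83 to 10.8) and 6.04 in B (2.76 to 11.5). It was 4.88 in C (1.79 to 10.6), 2.07 in D (0.0523 to 11.5) and 2.21 in E (0.0559 to 12.3). In F it was 12.2 (4.50 to 26.6), the highest, although F was of the length of D and E. This order depends on how scores are cut. With a minimum score at the median over all lists, F held 0 member intervals and D 0, against 2 in A, 5 in B, 3 in C and 1 in E. That cut applies 1 score to all lists, whose scores were ranked only within each list. With every list kept to its 4530 best scores, F held 6, against 2 each in A, B and C and 1 each in D and E. As 4530 is the length of E, and D (4837) and F (4899) were little longer, this cut shortens mainly A, B and C. That D, E and F kept their counts was thus largely set in advance. The 6 confidence intervals all overlapped one another, and they cover counting error only, treating the peaks of a list as independent.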

How the data were processed

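The authors' deposited files are 6 peak lists with no header line, giving position, strand, a peak name and a score. This deposited score has 1 value per peak and a lowest value of 70. What scale it uses is not given in the sources. Peak names have the default form of MACS, per the file contents. The build hg19 and the aligner HISAT2 (2.0.4) are named, per the submitters' processing notes. Which libraries entered each list is likewise not given in the sources.

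Each list was taken from the sample the record names, and starts were made 1-based. Locus spans (hg19) came with the choice of genes. The genes and the measures were chosen with earlier results of these data known. All 8 members are named. Regions are chains of intervals from any list sharing at least 1 bp on a strand. Score percentiles used mid-ranks within a list. No test over lists was made. Another 15 glycolysis genes foreseen for description were not analysed, because no hg19 positions were at hand. Start sequences are from RefSeq (GRCh38.p14), with all 8 members matched by symbol. Python 3.11.15, pandas 2.3.3, numpy 2.4.6, scipy 1.17.1, matplotlib 3.10.9 and bedtools 2.31.1 were used. The overlap code was tested on simulated data of 2000 regions and against bedtools, passing 5 of 5 checks. Alternatives were a minimum score, equal list length, other overlap, strand and span rules, and each list left out.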

Additional observations from a re-analysis of the deposited data

How the results depend on the processing

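Counts of intervals, loci and regions, covered lengths and median percentiles were recomputed under the alternatives that apply to them, and a count was taken as changed beyond 1.5 times. Regions in 3 or more lists were not recomputed with a list left out, and rates per 10000, likeness between loci, GGAC counts and peak numbers had no alternative. Ignoring strand, extending the spans by 1 kb, a reciprocal overlap of 50% and joining intervals within 100 bp changed none of the counts they were applied to beyond that limit. A minimum score at the median over all lists (260.435) removes low-scoring intervals by construction. Of 6, 9, 6, 1 and 6 member intervals, A kept 2, B 5, C 3, D 0 and F 0. There were then 6 member regions in place of 14, with 1 held by 3 or more lists in place of 5, 3 loci with an interval in place of 5, and 2 loci with one at the 5′ end. With every list kept to its 4530 best scores, a cut that leaves E whole and hardly shortens D and F, A, B and C held 2 each. D, E and F kept 1, 1 and 6. This left 8 regions, 2 of them in 3 or more lists, and 3 loci reached at the 5′ end. Leaving out intervals that cross a span's edge also gave 3 such loci. With each list left out in turn, 0 to 1 members had an interval in every remaining list, the 1 being PFKP without A. The covered length per list moved beyond the limit in 7 of 30 recomputations, all of them reductions, and ranking ties highest moved the median percentiles by at most 0.0172 points. The counts of loci with any interval and with one at the 5′ end, and of regions in 3 or more lists, were chosen after seeing the data. No paired analysis was possible because no list has a settled group. Depth is unknown, so whether a locus empty in a list was undetected or unmarked cannot be read from it.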

Other observations

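Peak names carry a running number that rose with position on each member's chromosome in every list, and most numbers were not kept in the deposited lists. Between the kept intervals that flank GAPDH, 5 (C) to 38 (E) numbers were missing. For ALDOA it was 7 (C) to 50 (F), and for LDHA 12 (B) to 159 (D). The positions of these unkept peaks are not known. At PKM in list C, the kept intervals on either side had consecutive numbers, so 0 were missing over 100210 bp that hold the whole span. At ENO1 in list C, 1 was missing over 286690 bp. Among the numbers from the first to the last interval on SLC2A1, 7 of 10 were missing in A, 4 of 6 in B and 3 of 6 in F. On PFKP, 6 of 9 were missing in B and 4 of 6 in C, and on HK2, 3 of 6 in B. The count was 0 for HK2 in C, ENO1 in A and PKM in F.

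HK2 borders a long stretch without kept intervals, and lies inside it in A, D, E and F, where the locus itself has none. On either strand, no interval followed its span for 10013031 bp in B and for 10415670 to 10433149 bp in the other lists.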
